A study of Mus musculus with 6 samples.

Results

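The genes described here are 7 mouse gene models that carry catalogue names: Gm49380, Gm14440, Gm9917, Gm13304, Gm5417, Gm1943 and A230050P20Rik. They were taken by symbol, matched to Ensembl gene IDs, from a table of 55631 gene IDs, and they were listed because control and KO libraries differed in these same data. Their genotype differences are therefore given as a description, and calls on them in the test over all genes are no evidence. The libraries were made from total RNA of palatal shelves of mouse embryos at stage E14.5. The 3 control libraries came from p130Casfl/fl embryos, which carry the floxed alleles and no Cre, and are titled WT. The 3 KO libraries came from p130Casfl/fl; CAG-Cre embryos. The CAG promoter that drives the recombinase is active in most cell types. How many embryos went into a library, and their sex, are not stated. The label says that these predicted genes differ with genotype; the KO values lay outside the control range for 6 of the 7, and for Gm1943 they did not.

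A Gm symbol is a placeholder for a predicted gene model, and a Rik symbol comes from a RIKEN cDNA clone. Such models often sit in sequence that another gene shares. A processed pseudogene is a copy of a spliced mRNA written back into the genome, an antisense gene lies across a gene on the other strand, and a read-through transcript runs from one gene into the next. Tandem gene families, such as the Ccl21 chemokine genes and the zinc finger genes of mouse chromosome 2, hold copies that differ little or not at all. A short read from a shared stretch fits more than one of these genes, and how such reads are shared out is decided by the mapping and counting software, whose settings no source used here gives. p130Cas, encoded by Bcar1, is an adaptor protein of focal adhesions that links integrins to the actin cytoskeleton.

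The annotation (GENCODE, GRCm38) types 4 of the genes as protein coding (Gm49380, Gm14440, Gm13304 and A230050P20Rik), Gm9917 as antisense, and Gm5417 and Gm1943 as processed pseudogenes. Gm49380, Gm9917 and A230050P20Rik are all on chromosome 9, but the nearest pair, Gm49380 and A230050P20Rik, are 23.19 Mb apart. Gm1943 is on chromosome 8, as is Bcar1, at a distance of 2.37 Mb. RefSeq lists Gm13304 with the synonyms Ccl21b, Ccl21c and 6Ckine, and A230050P20Rik under the name Shfl, with the synonym RyDEN. Shfl is the interferon-inducible antiviral protein known as shiftless, which inhibits programmed ribosomal frameshifting.

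The following sequences show how little separates several of these genes from their parents or copies. The whole of Gm1943 is 174 bases long, and every base matches the beginning of the Wdr70 coding sequence (bases 49 to 222 of its transcript). The capitals mark the start codon of Wdr70.
Gm1943: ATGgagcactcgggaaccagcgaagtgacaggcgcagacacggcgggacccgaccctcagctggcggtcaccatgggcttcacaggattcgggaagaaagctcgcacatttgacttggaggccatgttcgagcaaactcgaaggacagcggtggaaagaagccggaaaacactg
Gm5417 is 438 bases long and matches the coding part of Vkorc1l1 at 437 of them. The one difference, C426T, is in capitals, with the base of Gm5417 first and positions counted from 1 at the 5′ end of its transcript. Shown are bases 400 to 438 of Gm5417 and 644 to 682 of the Vkorc1l1 transcript.
Gm5417: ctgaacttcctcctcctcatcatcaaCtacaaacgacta
Vkorc1l1: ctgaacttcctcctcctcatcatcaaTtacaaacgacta
Gm13304 differs from Ccl21a at 5 of its 837 transcript bases, counted in the same way: A126T, T236C, T607C, C779T and A823G. The first 2 of these lie in its coding sequence, which spans bases 43 to 441, and are in capitals in the stretch from base 106 to base 256 of Gm13304, set against bases 139 to 289 of Ccl21a.
Gm13304: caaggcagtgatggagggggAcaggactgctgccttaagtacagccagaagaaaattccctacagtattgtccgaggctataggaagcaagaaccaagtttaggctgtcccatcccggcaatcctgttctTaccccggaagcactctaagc
Ccl21a: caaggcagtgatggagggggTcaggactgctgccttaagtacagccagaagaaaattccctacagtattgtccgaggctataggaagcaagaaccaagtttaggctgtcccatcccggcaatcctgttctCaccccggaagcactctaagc

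Promoter sequences (RefSeq, GRCm38.p6, 250 bases before to 50 after the annotated start) were matched for 3 of the genes: Gm14440, Gm9917 and Gm13304. They were compared with those of the tandem copies, base by base at the best shift. The Gm13304 promoter, chr4:42114537-42114836 on the plus strand, was identical to that of Gm10591 over all 300 bases. It differed from that of Ccl21a at 3 of 299 aligned bases, which are in capitals. The RefSeq promoter of Ccl21b aligned poorly with it, with 126 mismatches over 200 bases.
Gm13304: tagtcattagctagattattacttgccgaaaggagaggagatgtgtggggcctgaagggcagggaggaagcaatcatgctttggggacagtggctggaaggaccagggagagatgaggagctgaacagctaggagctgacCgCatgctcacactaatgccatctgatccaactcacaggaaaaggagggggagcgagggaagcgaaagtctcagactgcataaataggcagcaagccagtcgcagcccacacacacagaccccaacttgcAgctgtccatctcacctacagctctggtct
The Gm14440 promoter, chr2:175274875-175275174 on the plus strand, showed 0 differences from that of Gm14288 over 299 aligned bases, and so has no capitals.
Gm14440: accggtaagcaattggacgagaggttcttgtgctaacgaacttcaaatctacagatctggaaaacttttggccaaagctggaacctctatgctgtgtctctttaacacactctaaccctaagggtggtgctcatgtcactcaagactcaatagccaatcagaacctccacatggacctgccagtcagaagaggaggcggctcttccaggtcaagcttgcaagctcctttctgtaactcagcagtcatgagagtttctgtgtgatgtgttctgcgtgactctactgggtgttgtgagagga

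Levels are in FPKM, fragments scaled to gene length and library size. Comparison between genes is limited where copies share reads, and for a gene as short as Gm1943 (174 bases). All 7 genes passed the filter used for testing, a 6-library mean of 1 FPKM or more, and 6 of the 7 were above 0 in every library. Gm49380 and Gm14440, with KO means of 0.0469 and 0.546 FPKM, passed it only through their control values. KO libraries were all below the controls for 5 genes, all above them for 1 (A230050P20Rik) and overlapped them for 1 (Gm1943). Of all 14714 tested genes, 9.06% had groups that did not overlap: 5.79% with KO lower and 3.27% with KO higher. In the limma test over all tested genes on log2(FPKM + 1), 2 of the 7 passed a Benjamini-Hochberg adjusted p of 0.05 (Gm49380 lower, A230050P20Rik higher), against 0.333% of all tested genes: 0.326% as higher in KO and 0.0068% as lower. Nothing is read from these counts, since the same contrast chose the genes.

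**Figure D1:**
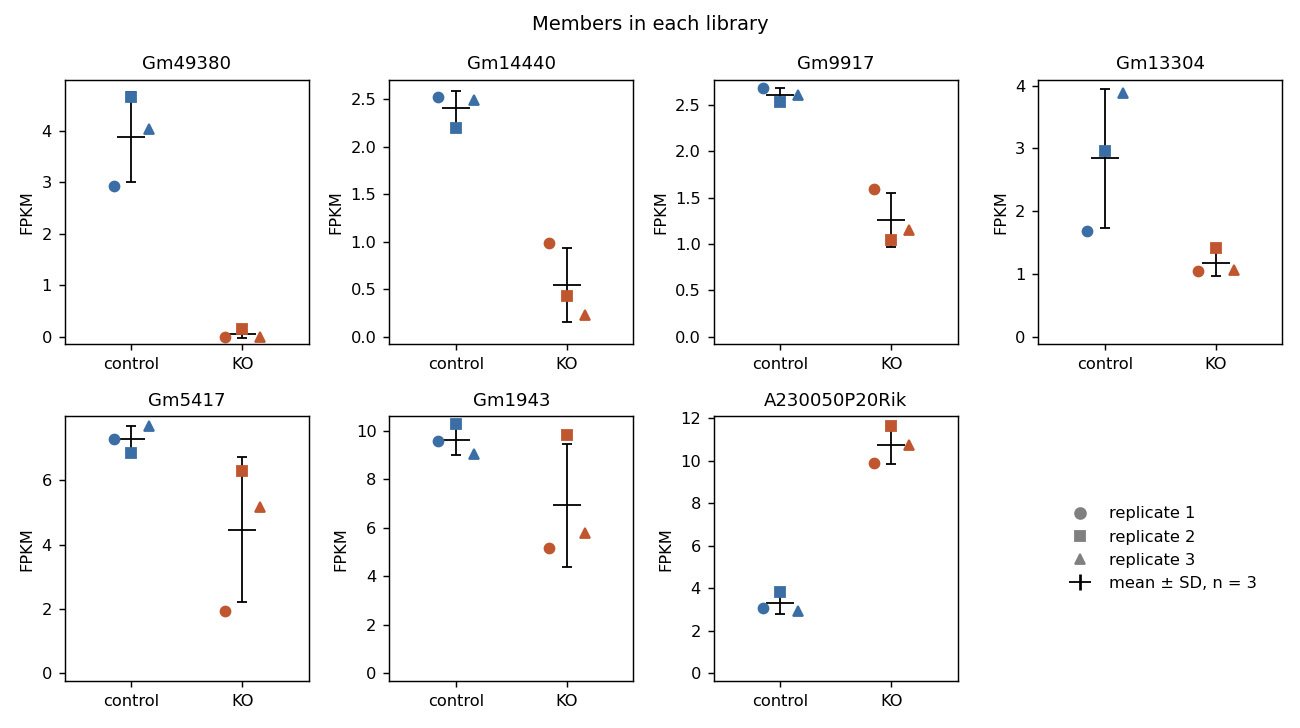
Level of each of the 7 genes in each library, in FPKM on a linear axis; symbols are replicates 1 to 3, the horizontal bar is the mean and the whiskers 1 SD (n = 3). Gm49380 is at or near 0 in all KO libraries, A230050P20Rik is higher in all of them, and for Gm1943 KO replicate 2 lies among the controls.

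In sequence shared with other genes, a measure that did not enter their choice, 6 of the 7 lay above the median of predicted genes. The share of 31-base words in a gene's transcripts that also occur, on either strand, in a transcript of another gene was 100% for Gm14440, Gm13304 and Gm1943. It was 96.8% for Gm5417, 84.1% for Gm49380, 47.3% for Gm9917 and 7.48% for A230050P20Rik. The median over the 7 was 96.8%, and 5 of them (71.4%) exceeded 50%. Among the 14504 tested genes with a transcript in the annotation the median was 1.9% and 8.96% exceeded 50%. The tested predicted and Rik genes, 1528 in number, had a median of 37.7%, and 45.2% of them exceeded 50%. Near-identical copies, with at least 90% identity over at least 50% of the transcript, existed for 5 genes (Gm49380, Gm14440, Gm13304, Gm5417 and Gm1943). Their levels are uncertain to the extent that the counting could not tell the copies apart. The transcripts of Gm14440, Gm13304 and Gm1943 match Gm14288, Gm21541 and Wdr70 at every base. A read wholly inside these transcripts cannot be assigned to either copy by its sequence. The values of Gm14440, Gm13304 and Gm1943 therefore depend on how the counting shared out such reads.

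**Figure D2:**
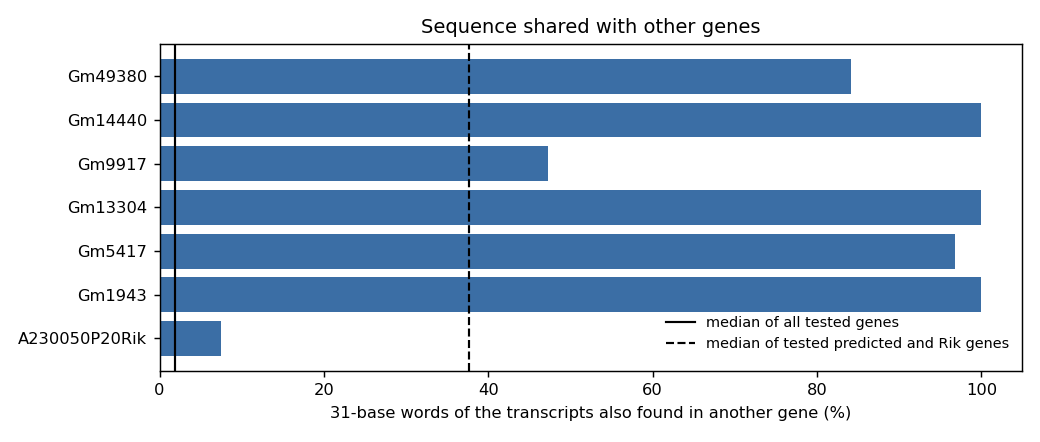
Percentage of 31-base words of each gene's transcripts that also occur in another gene; the solid line is the median of all tested genes (1.9%) and the dashed line that of tested predicted and Rik genes (37.7%). Bars of 6 genes pass the dashed line, and that of A230050P20Rik (7.48%) does not.

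Gm49380 (ENSMUSG00000111409) spans chr9:44066327-44113500 on the minus strand. Its level was 2.93, 4.66 and 4.04 FPKM in control replicates 1 to 3. In the KO libraries it was listed at 0 in replicates 1 and 3 and at 0.141 FPKM in replicate 2. The groups did not overlap. The value in KO replicate 2 was close to the smallest value above 0 in that library, 0.116 FPKM. The mean was 3.88 ± 0.876 FPKM in controls and 0.0469 ± 0.0813 FPKM in KO (SD, n = 3 each). The difference on the log2(FPKM + 1) scale was -2.21 (SE 0.15), the lowest of the 1528 tested predicted and Rik genes. This scale understates the change of genes at low levels. Only Gm49380 and Snorc, of the 14714 tested genes, were above 0 in all control libraries and listed at 0 in at least 2 KO libraries. Genes that averaged under 1 FPKM over the 6 libraries were not counted here. Gm49380 was chosen on these same values, so nothing is read from this count.

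Structurally, Gm49380 is a read-through model. It has 2 transcripts, 1 of which carries that tag, and its 2 exons of 2059 and 905 bases are separated by an intron of 44.2 kb. All 2059 bases of the first lie in exons of Rnf26, which encodes a RING-type ubiquitin ligase of the endoplasmic reticulum membrane, on the same strand. Both Gm49380 transcripts have a coding sequence of 1272 bases, and all of it is shared with Rnf26. Of the second exon, 466 bases lie in exons of Gm39325 on the same strand. On the opposite strand its exons overlap Gm26737 by 313 bases and Usp2, a deubiquitinase gene, by 200. In all, 439 of its 2964 exon bases belong to no other annotated exon.

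**Figure D3:**
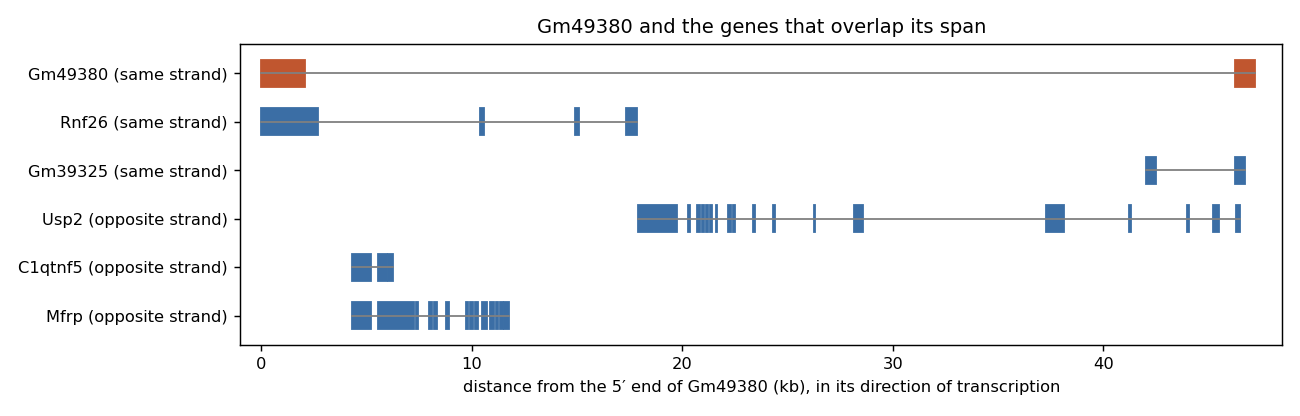
Exons (boxes) and introns (lines) of Gm49380 and 5 genes that overlap its span, by distance in kb from the 5′ end of Gm49380 in its direction of transcription. The first Gm49380 exon lies within Rnf26 and the second, 44.2 kb further on, overlaps Gm39325 and Usp2.

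Rnf26 levels overlapped between the groups while those of Gm49380 did not. They were 35.2, 34.6 and 38.1 FPKM in controls and 37.5, 40.4 and 37.0 FPKM in KO. The log2 difference was 0.09 (SE 0.07, 95% confidence interval -0.06 to 0.24, limma adjusted p = 1.00). Gm49380 made up 7.70%, 11.9% and 9.59% of the summed FPKM of this pair in controls and 0%, 0.348% and 0% in KO. Since FPKM are scaled to gene length, shares of summed FPKM given here and below are not shares of reads. The sum itself overlapped between groups, with means of 39.8 ± 2.08 FPKM in controls and 38.3 ± 1.92 FPKM in KO (SD, n = 3 each). Gm39325 stayed at or below 0.22 FPKM in every library, with values above 0 in 2 controls and 3 KO libraries. Usp2 had a log2 difference of -0.04 (SE 0.11) and Gm26737 of -0.02 (SE 0.16), both with limma adjusted p = 1.00. Inside the long intron, on the opposite strand, lies C1qtnf5, a secreted C1q-family gene, at 0.74, 2.98 and 2.96 FPKM in controls and 0.19, 2.20 and 1.17 FPKM in KO. That difference of -0.58 (SE 0.42) had a limma adjusted p of 1.00. Gm9008, a copy on another locus with 99.2% identity over 56.1% of Gm49380, lay between 0.59 and 0.80 FPKM in all libraries.

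Gm14440 (ENSMUSG00000078901) lies at chr2:175275125-175286805 on the plus strand, in the cluster of zinc finger genes of chromosome 2, many of which encode KRAB-domain repressors. Control replicates 1 to 3 had 2.53, 2.20 and 2.49 FPKM. KO replicates 1 to 3 had 0.985, 0.424 and 0.229 FPKM. No KO library reached the controls, and KO replicate 1 was the nearest to them. The means were 2.41 ± 0.179 and 0.546 ± 0.392 FPKM (SD, n = 3 each), with a log2(FPKM + 1) difference of -1.17 (SE 0.18).

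All 3382 bases of the Gm14440 transcript are identical to a stretch of Gm14288, a protein-coding gene on the minus strand of the same cluster (chr2:175789357-175801093). Gm14288 had 5.76, 4.21 and 3.83 FPKM in controls and 4.76, 3.57 and 5.15 FPKM in KO, so that its groups overlapped. Its log2 difference was -0.02 (SE 0.16, 95% confidence interval -0.40 to 0.35, limma adjusted p = 1.00). Gm14440 held 30.5%, 34.3% and 39.4% of the pair's summed FPKM in controls and 17.1%, 10.6% and 4.26% in KO. The summed level of both was 8.29, 6.41 and 6.32 FPKM in controls and 5.74, 3.99 and 5.38 FPKM in KO. Here all KO libraries were below all controls, a sum that includes the gene chosen for its difference. Zfp966, at 87.5% identity over 57.4% of the transcript, had a log2 difference of 0.12 (SE 0.17, limma adjusted p = 1.00).

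No tested gene around Gm14440 passed the test. The stretch from the first to the last Gm14-numbered or Zfp gene within 2 Mb (chr2:173394566-177267036) holds 104 annotated genes, Gm14440 among them. Of the others, 94 were in the table and 37 were tested. In the limma test 0 of the 37 had an adjusted p under 0.05, against 0.333% of all tested genes. An unadjusted p under 0.05 was found for 3. The median log2 difference of the 37 was -0.02, the same as over all tested genes, with 15 above 0 and 22 below it. Groups did not overlap in 7 of the 37, against 9.06% of all tested genes. The largest differences among these 7, named after their values were seen, were higher in KO: Gm6710 at 0.75 (SE 0.25) and Atp5k-ps2 at 0.63 (SE 0.13), with limma adjusted p of 1.00 and 0.281. The lowest difference of the 37, also named after its value was seen, was that of Gm14308 at -0.69 (SE 0.40). Its groups overlapped: KO replicates 2 and 3 were below the controls and KO replicate 1 was inside their range. The 4 with the highest level were Gnas, the stimulatory G protein alpha subunit gene, at -0.08 (SE 0.09), Atp5e at -0.06 (SE 0.11), Ctsz at 0.13 (SE 0.08) and Nelfcd at -0.09 (SE 0.06). The nearest tested genes were Gm14438, 3.9 kb away, at 0.01 (SE 0.15), and Zfp968, 85.6 kb away, at -0.01 (SE 0.11).

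Gm13304 (ENSMUSG00000073878) is a Ccl21-type chemokine gene at chr4:42114817-42115917 on the plus strand. CCL21 is made by lymphatic endothelium and lymphoid stroma and draws cells bearing its receptor CCR7. Gm13304 stood at 1.68, 2.96 and 3.88 FPKM in controls and at 1.04, 1.41 and 1.07 FPKM in KO. The controls were spread widely, and the lowest of them lay just above the highest KO library. Means were 2.84 ± 1.11 and 1.17 ± 0.205 FPKM (SD, n = 3 each), a log2(FPKM + 1) difference of -0.78 (SE 0.21).

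Its copies had lower KO means as well, but none passed the test. Gm21541, identical over all 837 bases and 210.1 kb away, had 1.35, 1.39 and 2.86 FPKM in controls and 0.85, 1.43 and 0.88 FPKM in KO, a log2 difference of -0.45 (SE 0.21). Ccl21a had 10.4, 12.4 and 13.99 FPKM in controls and 5.88, 10.9 and 6.94 FPKM in KO, a log2 difference of -0.60 (SE 0.20, 95% confidence interval -1.07 to -0.14). Ccl21b and Gm10591 are identical to Gm13304 over 402 bases, 48.0% of its transcript, and had log2 differences of -0.69 (SE 0.23) and -0.75 (SE 0.30). The limma adjusted p was 1.00 for each of these 4 genes, and the groups overlapped in each. Summed over the 4, the level was 13.9, 19.0 and 23.5 FPKM in controls and 8.67, 14.7 and 9.25 FPKM in KO, with KO replicate 2 inside the control range. Because these genes share nearly all their sequence, their values are not independent measurements. Gm13304 took 10.7%, 13.5% and 14.2% of the family's summed FPKM in controls and 10.7%, 8.72% and 10.3% in KO.

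Of 8 genes listed for the locus and the receptor, 7 were in the table and 5 tested. In the limma test 0 of the 5 passed, and 2, the copies Ccl21a and Ccl21b, had an unadjusted p under 0.05. All 5 differences were below 0, with a median of -0.45. The other tested genes were the skin chemokine gene Ccl27a at -0.04 (SE 0.06) and the interleukin 11 receptor genes Il11ra1 at -0.08 (SE 0.08) and Il11ra2 at -0.45 (SE 0.24). Il11ra2 had 2.31, 2.402 and 2.20 FPKM in controls and 2.72, 0.988 and 0.913 FPKM in KO, lower than the controls in KO replicates 2 and 3 only. Ccl19, which encodes the other CCR7 ligand, was listed at 0 in all libraries, and Ccr7 lay between 0.17 and 0.32 FPKM. The summed lymphatic endothelial markers (Prox1, Lyve1, Flt4, Pdpn, Reln and Ccl21a itself) ranged from 35.1 to 42.1 FPKM in controls and from 30.9 to 37.7 FPKM in KO. Of the 5 tested, 2 were above 0 and 3 below. The largest difference was that of Ccl21a, the copy of Gm13304, at -0.60 (SE 0.20). Its means were 12.2 FPKM in controls and 7.91 FPKM in KO. The others were Prox1 at 0.06 (SE 0.13), Reln at 0.09 (SE 0.13), Pdpn at -0.03 (SE 0.08) and Flt4 at -0.19 (SE 0.12). No marker of this list was at 0 in all libraries. The 9 markers listed for endothelium as a whole summed to 149 to 169 FPKM in controls and 119 to 146 FPKM in KO. All 9 had a log2 difference below 0, and 4 had no overlap (KO lower, against 5.79% of all tested genes). In the limma test 0 of the 9 passed, with 3 at an unadjusted p under 0.05. The part of these marker levels in the Gm13304 difference was not tested. In bulk tissue, fewer cells of a type and less RNA per cell cannot be told apart.

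**Figure D4:**
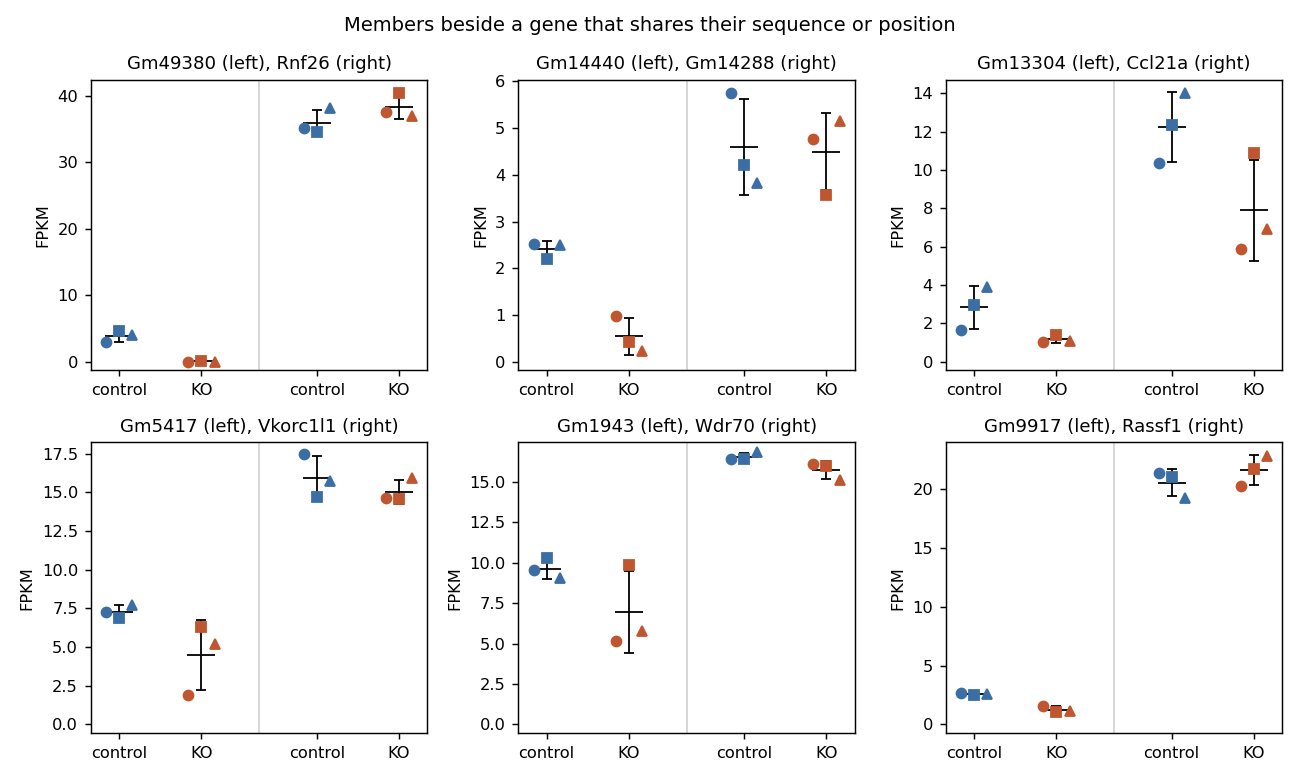
Level in FPKM (linear axis) of 6 of the genes, left in each panel, beside a gene that shares their sequence or position, right; circles, squares and triangles are replicates 1 to 3, blue is control, orange is KO, bars and whiskers are mean and SD (n = 3). Rnf26, Gm14288, Ccl21a, Vkorc1l1 and Rassf1 overlap between groups, while in Wdr70 the KO libraries are all slightly lower.

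Gm9917 (ENSMUSG00000097099) is the antisense gene, at chr9:107558809-107568415 on the minus strand. It was the least variable of the genes among controls, at 2.69, 2.54 and 2.61 FPKM. KO libraries had 1.59, 1.05 and 1.15 FPKM, all below the controls. Means were 2.61 ± 0.0757 and 1.26 ± 0.290 FPKM (SD, n = 3 each), and the log2(FPKM + 1) difference was -0.68 (SE 0.12).

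Of the 6021 exon bases of Gm9917, 49.5% lie opposite exons of other genes. Rassf1, a Ras-association domain tumour suppressor, covers 2496 of them and Tusc2 covers 484, while Hyal2, a hyaluronidase gene, overlaps its span without sharing exon bases. No source used here says whether the counting used strand. If it did not, reads of Gm9917 and of these partners cannot be told apart over the shared bases. Rassf1 had 21.3, 21.0 and 19.3 FPKM in controls and 20.2, 21.7 and 22.8 FPKM in KO, overlapping groups with a log2 difference of 0.07 (SE 0.07, 95% confidence interval -0.10 to 0.23). Tusc2 was at -0.11 (SE 0.09) and Hyal2 at -0.10 (SE 0.08), and all 3 had a limma adjusted p of 1.00. Gm9917 made up 7.66%, 6.83% and 7.47% of the summed FPKM of Gm9917, Rassf1 and Tusc2 in controls and 4.68%, 3.03% and 3.30% in KO. The nearest tested genes outside its span, Zmynd10 and Hyal1, had differences of 0.08 (SE 0.21) and -0.01 (SE 0.09).

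Gm5417 (ENSMUSG00000049414), at chr15:83405626-83406063 on the minus strand, is a processed pseudogene of Vkorc1l1, a vitamin K epoxide reductase gene. It sits in an intron of Pacsin2 on the same strand, without exon overlap. Controls had 7.29, 6.85 and 7.70 FPKM and KO libraries 1.94, 6.29 and 5.19 FPKM. All KO libraries were below the controls, with replicate 1 far lower than the others and replicate 2 close to the control range. Means were 7.28 ± 0.423 and 4.47 ± 2.26 FPKM (SD, n = 3 each), and the log2(FPKM + 1) difference was -0.70 (SE 0.30). Without KO replicate 1 it was -0.30, so 1 library carried more of the difference than any other.

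Vkorc1l1, the parent gene that shares all but 1 of the 438 bases shown above, had 17.5, 14.7 and 15.7 FPKM in controls and 14.6, 14.6 and 15.9 FPKM in KO. The log2 difference of the parent was -0.08 (SE 0.08, 95% confidence interval -0.26 to 0.11, limma adjusted p = 1.00). Gm5417 took 29.5%, 31.8% and 32.9% of the summed FPKM of pseudogene and parent in controls and 11.7%, 30.1% and 24.5% in KO. Only KO replicates 1 and 3 fell outside the control range of this share. It is not a share of reads: Gm5417 has 438 bases and the matching Vkorc1l1 transcript 3112, and FPKM are scaled to length. The host gene Pacsin2, an adaptor of endocytosis, was at 0.03 (SE 0.07). The further Vkorc1l1 pseudogenes related to Gm5417, Gm5418, Gm5419 and Gm28923, were listed at 0 in all libraries.

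Gm1943 (ENSMUSG00000110528), at chr8:109340691-109340864 on the minus strand, is the 174-base copy of the start of Wdr70, a WD-repeat gene. Controls had 9.55, 10.3 and 9.03 FPKM, and KO libraries 5.18, 9.83 and 5.77 FPKM. KO replicates 1 and 3 were below the controls and replicate 2 was inside their range, so the groups overlapped. The means of 9.62 ± 0.633 and 6.92 ± 2.53 FPKM (SD, n = 3 each) gave a log2(FPKM + 1) difference of -0.47 (SE 0.20). It was -0.71 without KO replicate 2 and -0.31 without KO replicate 1. KO replicate 2 was the only library with Xist (61.0 FPKM, listed at 0 elsewhere) and without Ddx3y (listed at 0, against 15.2 to 18.8 FPKM elsewhere). The part of embryo sex in the Gm1943 values was not tested.

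Wdr70 had 16.4, 16.4 and 16.8 FPKM in controls and 16.1, 16.0 and 15.1 FPKM in KO. Its KO libraries were all slightly lower, with a log2 difference of -0.07 (SE 0.06, 95% confidence interval -0.21 to 0.07, limma adjusted p = 1.00). Gm1943 formed 36.8%, 38.6% and 34.9% of the pair's summed FPKM in controls and 24.3%, 38.1% and 27.6% in KO. These are not shares of reads: Gm1943 has 174 bases and the matching Wdr70 transcript 2126, and FPKM are scaled to length. The genome around the pseudogene is sparse in tested genes: the nearest were Zfhx3, 379.1 kb away, at 0.02 (SE 0.10), and Dhx38, 207.1 kb away, at -0.01 (SE 0.06).

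A230050P20Rik (ENSMUSG00000038884), at chr9:20868642-20874307 on the plus strand, differs from the other genes in direction and in sequence. Its level was 3.08, 3.84 and 2.95 FPKM in controls and 9.89, 11.7 and 10.7 FPKM in KO. Every KO library was far above every control. Means were 3.29 ± 0.482 and 10.8 ± 0.883 FPKM (SD, n = 3 each), 227% higher in KO, with a log2(FPKM + 1) difference of 1.46 (SE 0.11). It had the highest difference of the 1528 tested predicted and Rik genes. Of its 3417 exon bases, 265 (7.76%) lie opposite Angptl6, which had 0.71, 0.65 and 0.88 FPKM in controls and 0.90, 1.32 and 0.88 FPKM in KO and was too low to test.

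The tested genes whose pattern over the 6 libraries was most like that of A230050P20Rik were Ifi44, Ifitm3 and Igtp, all interferon-inducible. Likeness was the mean absolute difference of log2(FPKM + 1) values, centred for each gene, and was 0.09 for Ifi44, 0.09 for Ifitm3 and 0.11 for Igtp. Ifi44 had 0.78, 1.00 and 0.65 FPKM in controls and 3.19, 4.27 and 4.84 FPKM in KO, a log2 difference of 1.48 (SE 0.15, limma adjusted p = 0.00502). Ifitm3, which encodes a membrane protein that restricts virus entry, had 27.6, 33.9 and 26.4 FPKM in controls and 64.3, 87.2 and 71.7 FPKM in KO, a difference of 1.31 (SE 0.13, limma adjusted p = 0.00502). Igtp, an immunity-related GTPase gene, had 1.15, 1.40 and 1.28 FPKM in controls and 4.32, 6.43 and 5.87 FPKM in KO, a difference of 1.51 (SE 0.14, limma adjusted p = 0.00371). All 3 were picked for their likeness to a gene chosen on this contrast, so their calls are no independent evidence.

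The summed level of leukocyte markers, such as Lyz2, C1qa and Adgre1, did not overlap between groups. It was 66.7 to 84.3 FPKM in controls and 97.4 to 134 FPKM in KO. All 11 tested had a log2 difference above 0, with a median of 0.48, and 9 had groups without overlap (KO higher, against 3.27% of all tested genes). In the limma test 0 of the 11 passed (against 0.333% of all tested genes), with 9 at an unadjusted p under 0.05. None of the 12 listed markers was at 0 in all libraries. The part of these cells in the A230050P20Rik difference was not tested. Beside A230050P20Rik, the nearest tested genes were Col5a3, 53.6 kb away, at 0.09 (SE 0.15), and Ppan, 13.9 kb away, at -0.09 (SE 0.07). Raver1, 199.9 kb away, had 42.4, 29.6 and 28.8 FPKM in controls and 22.1, 16.4 and 28.2 FPKM in KO, without overlap but with a limma adjusted p of 1.00 for its difference of -0.58 (SE 0.21).

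Each of the other 6 genes was compared with all tested genes in the same way. The values closest to Gm49380 were those of Shisa3 (0.63), Prph (0.69) and Epyc (0.69), all further off than any other gene's best 3. Epyc (0.25), Nkx3-2 (0.31) and Mir6955 (0.31) came nearest to Gm14440. Epyc, a cartilage proteoglycan gene, had 1.92, 2.41 and 2.84 FPKM in controls and 1.78, 0.348 and 0.836 FPKM in KO. The summed cartilage markers, Epyc among them, were 347, 302 and 617 FPKM in controls and 756, 166 and 170 FPKM in KO, highest in KO replicate 1. In that library Gm49380 was listed at 0 and Gm14440 had its highest KO value, 0.985 FPKM. The part of cartilage in the values of Gm49380 and Gm14440 was not tested. Gm9917 was followed most closely by Mir7069 (0.10), C130074G19Rik (0.11) and Dpyd (0.12). Gm13304 had its copy Ccl21b (0.06), then Hfe2 (0.14) and Slc10a4 (0.15). Mir493 (0.13), Sp6 (0.15) and Acp5 (0.16) were nearest to Gm5417. An ID without a symbol in the annotation, ENSMUSG00000121068 (0.08), Zfp385c (0.10) and Pnldc1 (0.11) were nearest to Gm1943. None of these most similar genes passed the limma test.

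No tested gene close to the 7 passed the test. Of 69 genes in the table within 100 kb of one of them, 35 were tested and 0 passed the limma test in either direction, with 0 at an unadjusted p under 0.05, where 0.333% of all tested genes passed it. The median log2 difference of these neighbours was -0.06, against -0.02 over all tested genes, and they ranged from -0.58 (C1qtnf5) to 0.12 (1700001L05Rik). All 35 had overlapping groups. With so small a share passing among all genes, 0 calls among so few neighbours is what that share gives, and nothing is read from it. Within 500 kb, 147 genes were tested, 0 passed, 6 had an unadjusted p under 0.05 and 10 (6.8%) had groups that did not overlap. This wider set includes Gm21541, Ccl21b and Gm10591, which are copies of Gm13304.

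Set against the other predicted and Rik genes, the 7 lie at the edges of the distribution from which they were picked. Of 1528 such genes tested, 2 were called higher and 1 lower in KO (0.196%), and 9.62% had groups without overlap. Their median log2 difference was -0.01 and the median size of the difference 0.09, against -0.02 and 0.06 over all tested genes. Counted from the lowest difference, Gm49380 ranked 1, Gm14440 3, Gm13304 5, Gm5417 9, Gm9917 11 and Gm1943 21.

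**Figure D5:**
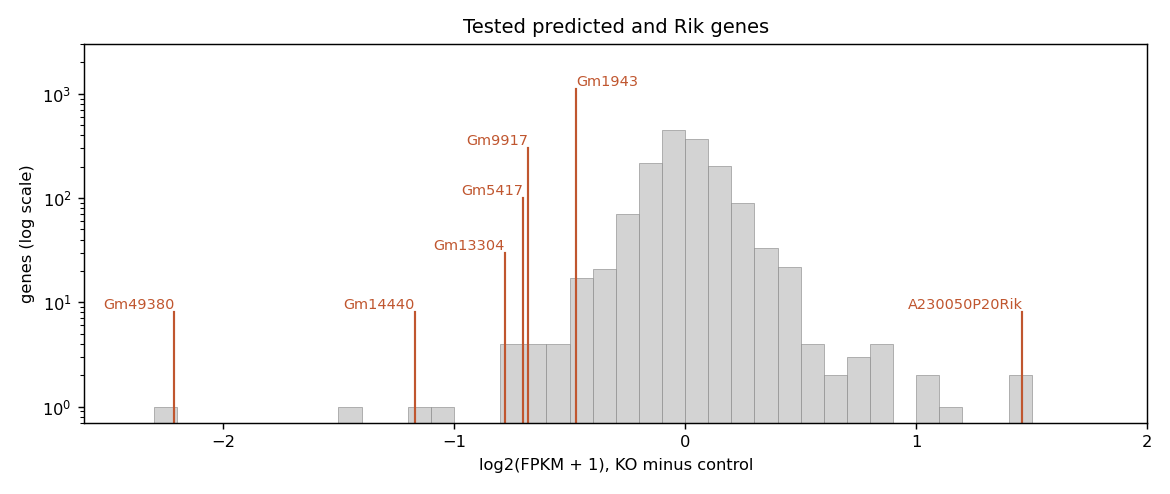
Number of tested predicted and Rik genes (log axis) by their log2(FPKM + 1) difference, KO minus control, in bins of 0.1; orange lines mark the 7 genes, and the height of a line carries no value. The lines stand in the tails because these genes were chosen for their difference: Gm49380 at -2.21 is leftmost and A230050P20Rik at 1.46 is in the rightmost bin.

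Over the whole table, library sums were between 384979 and 424993 FPKM, and without read counts the depth behind a value, and its counting error, cannot be given. In all, 48 genes passed the limma test as higher and 1 as lower in KO, and 590 had an unadjusted p under 0.05. Bcar1, the targeted gene, had 1.80, 1.97 and 2.09 FPKM in controls and 1.69, 1.69 and 1.31 FPKM in KO, a log2 difference of -0.21 (SE 0.11, limma adjusted p = 1.00). The table gives 1 value per gene and does not isolate the floxed exons. The summed palatal mesenchyme markers, such as Osr2, Shox2 and Prrx1, were 505 to 581 FPKM in controls and 535 to 643 FPKM in KO. The labels do not tie replicates to separate litters, and the p-values therefore reflect only how far these samples scatter.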

How the data were processed

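Palatal shelf RNA was sequenced in 3 control and 3 KO libraries. The values are FPKM as deposited by the authors, in 1 table of 55631 gene IDs whose name gives the unit. Build mm10 and DESeq2 1.5.2 are named in the submitters' processing notes. What aligned and counted the reads, with which annotation and strand setting, and how multiply mapped reads were treated, is not given in the sources used here. Depth is unknown.

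The 7 genes and the lists were chosen with earlier results of these data known. Symbols and exons came from GENCODE (GRCm38) by gene ID (50876 matched, 4755 did not). On log2(FPKM + 1) values, a model was fitted with limma 3.58.1 in R 4.3.3 (lmFit, eBayes with trend, genotype as the only term), for the 14714 genes that averaged 1 FPKM or more. Tests were two-sided, with Benjamini-Hochberg adjustment at 0.05, and the fit was tested on simulated data. Copies were found with blastn 2.17.0 against all annotated transcripts, and 31-base words were compared on both strands. The text names the 7 genes, overlapping genes, the nearest tested gene on each side, up to 4 copies, the 3 genes of most like pattern, genes within 500 kb that were called or did not overlap with a log2 difference of at least 0.58 in size, called predicted genes, and up to 4 genes per list. Other pseudocounts, filters, scalings, variance settings, a replicate block and each library left out were tried.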

Additional observations from a re-analysis of the deposited data

How the results depend on the processing

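The log2 differences of the 7 genes kept their sign in all 115 alternative values, and 14 moved by more than the spread between replicates, all under pseudocounts of 0.1 or 0.01 or rescaling to TPM. The ranges were -7.27 to -2.09 for Gm49380, -2.36 to -1.02 for Gm14440, -1.07 to -0.62 for Gm9917, -1.20 to -0.59 for Gm13304, -0.96 to -0.30 for Gm5417, -0.71 to -0.31 for Gm1943 and 1.40 to 1.71 for A230050P20Rik. At a filter of a mean of 5 FPKM, 4 of the genes were not tested (Gm49380, Gm14440, Gm9917 and Gm13304), and fewer genes were called: 24 higher and 0 lower among all genes, and 1 among predicted and Rik genes. Calls lower in KO were 2 at a filter of a mean of 0.1 FPKM and 2 with no filter. Leaving out single libraries gave 32 to 48 calls higher (32 without control replicate 3), 1 to 2 lower (2 without KO replicate 1 or without KO replicate 2), and 2 to 5 among predicted and Rik genes (5 without KO replicate 2). Genes near the 7 had 0 calls under every alternative, windows of 50 and 500 kb included. Copies existed for 5 of the 7 genes at 80%, 90% and 95% identity, with 18, 8 and 7 copies. Replicate numbers are shared between the groups, but only the libraries numbered 2 correlated best with their own number (correlations of deviations across genes of 0.019, 0.305 and -0.241 for numbers 1 to 3). With the replicate number as a block, calls were 41 higher, 1 lower and 2 among predicted and Rik genes. The FPKM carry no read counts, so how far depth limits genes at 1 to 4 FPKM is unknown.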

Other observations

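Among predicted and Rik genes, 1 further gene was called: Gm6548, a processed pseudogene at chr17:78850792-78851956, rose from 8.45, 7.70 and 7.05 FPKM in controls to 11.5, 12.3 and 13.1 FPKM in KO, a log2 difference of 0.61 (SE 0.09, limma adjusted p = 0.0413). By gene type, the 509 tested processed pseudogenes with such symbols included 41 without overlap and KO higher and 17 without overlap and KO lower (over all tested genes 3.27% and 5.79%), and their median log2 difference was 0.06. Of the 183 tested antisense genes with such symbols, 3 had KO higher and 14 KO lower without overlap, and their median was -0.06. No test compared these types.

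The mirror image of the Gm49380 pattern, listed at 0 in at least 2 controls and above 0 in all KO libraries, was shown by 2 tested genes, Esr1 and Gm10260, which were named after their values were seen. Esr1, the oestrogen receptor alpha gene, was listed at 0 in all controls and at 6.94, 5.28 and 5.80 FPKM in KO. Gm10260 was listed at 0, 0 and 1.11 FPKM in controls and at 2.09, 1.22 and 1.88 FPKM in KO. Snorc, a cartilage proteoglycan gene that shared the Gm49380 pattern, had 1.10, 1.48 and 9.76 FPKM in controls, 5.36 FPKM in KO replicate 1 and 0 in the other KO libraries, so its groups overlapped.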
